A study of Mus musculus with 18 samples.

Results

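The genes described here build the machinery that loads, docks and fuses transmitter-filled vesicles, measured in RNA from the whole cortex of mice. Members were chosen by gene symbol alone: the synaptotagmin, synapsin, synaptogyrin, synaptophysin, Sv2 and Rab3 families, the vesicle-associated membrane protein (Vamp), syntaxin and Snap families, the syntaxin-binding proteins, complexins, Rims and Unc13 families. The rule found 70 of the 13784 genes in the tables. The study compared 18 mice in 4 groups, 4 controls given saline, 5 controls given lipopolysaccharide (LPS, a bacterial outer membrane component that sets off innate immunity), 4 astrocyte-specific conditional knockouts (cKO) of the chromatin remodeller Chd8 given saline, and 5 cKO mice given LPS. LPS went into the abdominal cavity at 5 mg/kg in mice aged 4 to 6 months, and tissue was taken 72 hours later. The dose and interval in hours are those the labels give for LPS, while the age of 4 to 6 months and day 3 are listed for all 4 groups. Strain, sex, the driver of the knockout and the genotype of the controls are not given in the labels used here.

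A synaptic vesicle fuses when Vamp2 on the vesicle zips together with a syntaxin and Snap25 on the plasma membrane into the SNARE complex. Syntaxin-binding proteins of the Munc18 family and the Unc13 proteins (Munc13) prepare syntaxin for that complex, complexins clamp and promote it, tomosyns (Stxbp5 and Stxbp5l) hold it back, and synaptotagmins trigger it when calcium enters. Synapsins tether the reserve of vesicles, and Rab3 with the Rims docks vesicles at the active zone, the release site. Other syntaxins, Vamps and Snaps carry fusion at the Golgi, endosomes and plasma membrane of every cell type, astrocytes, microglia and endothelium included.

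The values are those of 3 tables of the authors' comparisons, with a fold change per gene on the log2 scale, the mean level as log2 CPM (read counts scaled to library size), an F statistic, a p-value, and an FDR (the p-value adjusted over all 13784 genes). A gene was called changed at an FDR below 0.05. Values of single mice were not used here, so the spread between mice enters only through the standard error (SE), computed as the absolute log2 fold change over the square root of F. Group levels were back-calculated from the deposited mean and fold change and are estimates without a spread. Each LPS level is the mean of 2 estimates from different tables, which differed by at most 0.09 log2 units for any member. For most members the estimate from the table of genotypes was the lower one. Steps between printed levels therefore differ somewhat from the deposited fold changes, and falls look larger. Unc13b in cKO mice goes from 6.97 to 6.61, against a deposited change of -0.31. The deposited fold changes are the measure of change. The library depths are unknown. Mean log2 CPM in the table of controls ran from 2.31 for Vamp8 to 11.07 for Snap25, and all 70 members passed a minimum of 1. Syngr2, the member with the largest rise, was near the low end at 2.64.

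All 12 cortical excitatory neuron markers were present, at a back-calculated 3.82 log2 CPM or more in control saline mice. Chd8 in whole cortex did not differ detectably between the genotypes after LPS in the authors' deposited table (0.02 ± 0.05 SE, FDR = 0.901). Chd8 itself rose after LPS by 0.34 ± 0.08 in controls (FDR = 0.0312) and 0.45 ± 0.07 in cKO mice (FDR = 0.00597) in the authors' deposited tables. Sex-linked transcripts moved with the groups. The estimated level of the Y-linked gene Ddx3y was -7.19 log2 CPM in control saline mice, 3.96 after LPS in controls, 5.87 in cKO mice given saline and 5.69 in those given LPS, and that of Uty, also Y-linked, followed the same order at -7.35, 2.82, 4.80 and 4.25. Xist, expressed from the inactive X, stood at 7.47, 7.30, 4.35 and 5.98 log2 CPM. Their part in any member's change was not tested, and 2 members, Syn1 and Syp, lie on the X chromosome. The sample titles give saline samples a plain number and LPS samples a letter with a number; treatment and any difference in handling cannot be told apart. In bulk tissue, fewer cells of a type and less RNA per cell cannot be told apart either.

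The upstream sequences of 5 genes are shown because they stand for the calls described below: Stxbp2 and Syngr2 rose after LPS in both genotypes, while the tomosyns Stxbp5 and Stxbp5l and the priming factor gene Unc13b fell in cKO mice. Each is the 250 bases before the start of the gene from RefSeq on GRCm38.p6, 5′ to 3′ on the gene's strand, at chr8:3630859-3631108 (plus), chr11:117809417-117809666 (plus), chr10:9901041-9901290 (minus), chr16:37384959-37385208 (minus) and chr4:43058703-43058952 (plus). Capitals mark the motifs searched on both strands.
Stxbp2: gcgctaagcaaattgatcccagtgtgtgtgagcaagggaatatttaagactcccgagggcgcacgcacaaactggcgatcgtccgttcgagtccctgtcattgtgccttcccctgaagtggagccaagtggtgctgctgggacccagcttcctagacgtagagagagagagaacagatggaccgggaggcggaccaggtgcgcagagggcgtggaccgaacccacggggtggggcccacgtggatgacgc
Syngr2: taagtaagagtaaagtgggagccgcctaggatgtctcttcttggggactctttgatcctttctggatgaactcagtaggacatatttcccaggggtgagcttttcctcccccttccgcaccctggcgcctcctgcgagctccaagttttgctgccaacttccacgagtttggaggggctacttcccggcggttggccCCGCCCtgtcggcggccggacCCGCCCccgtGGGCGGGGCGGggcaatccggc
Stxbp5: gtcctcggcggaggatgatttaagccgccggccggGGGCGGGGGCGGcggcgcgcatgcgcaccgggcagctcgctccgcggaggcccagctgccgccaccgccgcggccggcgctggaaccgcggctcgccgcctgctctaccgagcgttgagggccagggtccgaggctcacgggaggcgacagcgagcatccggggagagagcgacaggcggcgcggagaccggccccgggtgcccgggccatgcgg
Stxbp5l: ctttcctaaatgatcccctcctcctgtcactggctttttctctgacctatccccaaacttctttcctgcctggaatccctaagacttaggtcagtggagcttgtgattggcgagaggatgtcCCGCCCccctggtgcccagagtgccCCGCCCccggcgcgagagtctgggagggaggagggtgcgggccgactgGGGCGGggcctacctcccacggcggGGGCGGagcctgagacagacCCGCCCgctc
Unc13b: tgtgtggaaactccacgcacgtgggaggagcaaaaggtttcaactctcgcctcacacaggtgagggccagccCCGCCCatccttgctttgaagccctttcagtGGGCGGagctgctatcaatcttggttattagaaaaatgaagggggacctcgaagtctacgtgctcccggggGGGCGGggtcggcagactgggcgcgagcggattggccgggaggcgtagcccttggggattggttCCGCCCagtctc
The motifs were the GC box GGGCGG, the cyclic AMP response element TGACGTCA and the STAT site TTCNNNGAA, and overlapping GC boxes were each counted. GC boxes numbered 0 in Stxbp2, 4 in Syngr2, 2 in Stxbp5, 5 in Stxbp5l and 4 in Unc13b, and the other motifs were in none of these 5 windows. Over all 32851 RefSeq windows of this length, 32.7% held a GC box, 1.55% the cyclic AMP element and 7.02% the STAT site. Entries were found for 55 of the 70 members and for 11 of the 17 that changed in at least 1 genotype, while Vamp2, Syn3, Syngr3, Rims4 and Syt13 were among those without one. Of the 12 windows of those 11 genes, 9 held a GC box, 0 the cyclic AMP element and 1, the second window of Syn2, the STAT site. Windows of members that were not called were not counted, so called and uncalled members cannot be compared here.

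After LPS in controls, the genes that rose included the fusion gene Vamp2, the vesicle genes Syngr2 and Syn3 and the regulator gene Stxbp2, and Syngr3 fell. The 6 of the 70 members called (5 higher, 1 lower, by the authors' deposited table) were 8.57% of members against 9.76% of all genes (6.46% higher and 3.31% lower). The share called was close to that of the whole transcriptome. An unadjusted p below 0.05 was found for 21 of 70 members, against 28.9% of all genes. In cKO mice 8 rose and 8 fell, 22.9% of members against 19.5% of all genes (10.9% higher and 8.52% lower), and 29 of 70 had an unadjusted p below 0.05, against 35.8%. The median member had a log2 fold change of 0.00 in controls and 0.02 in cKO mice, beside 0.00 for all genes in each. The changes were small: 63 of 70 members in controls and 62 of 70 in cKO mice had a 95% interval wholly inside a 1.5-fold change.

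**Figure D1:**
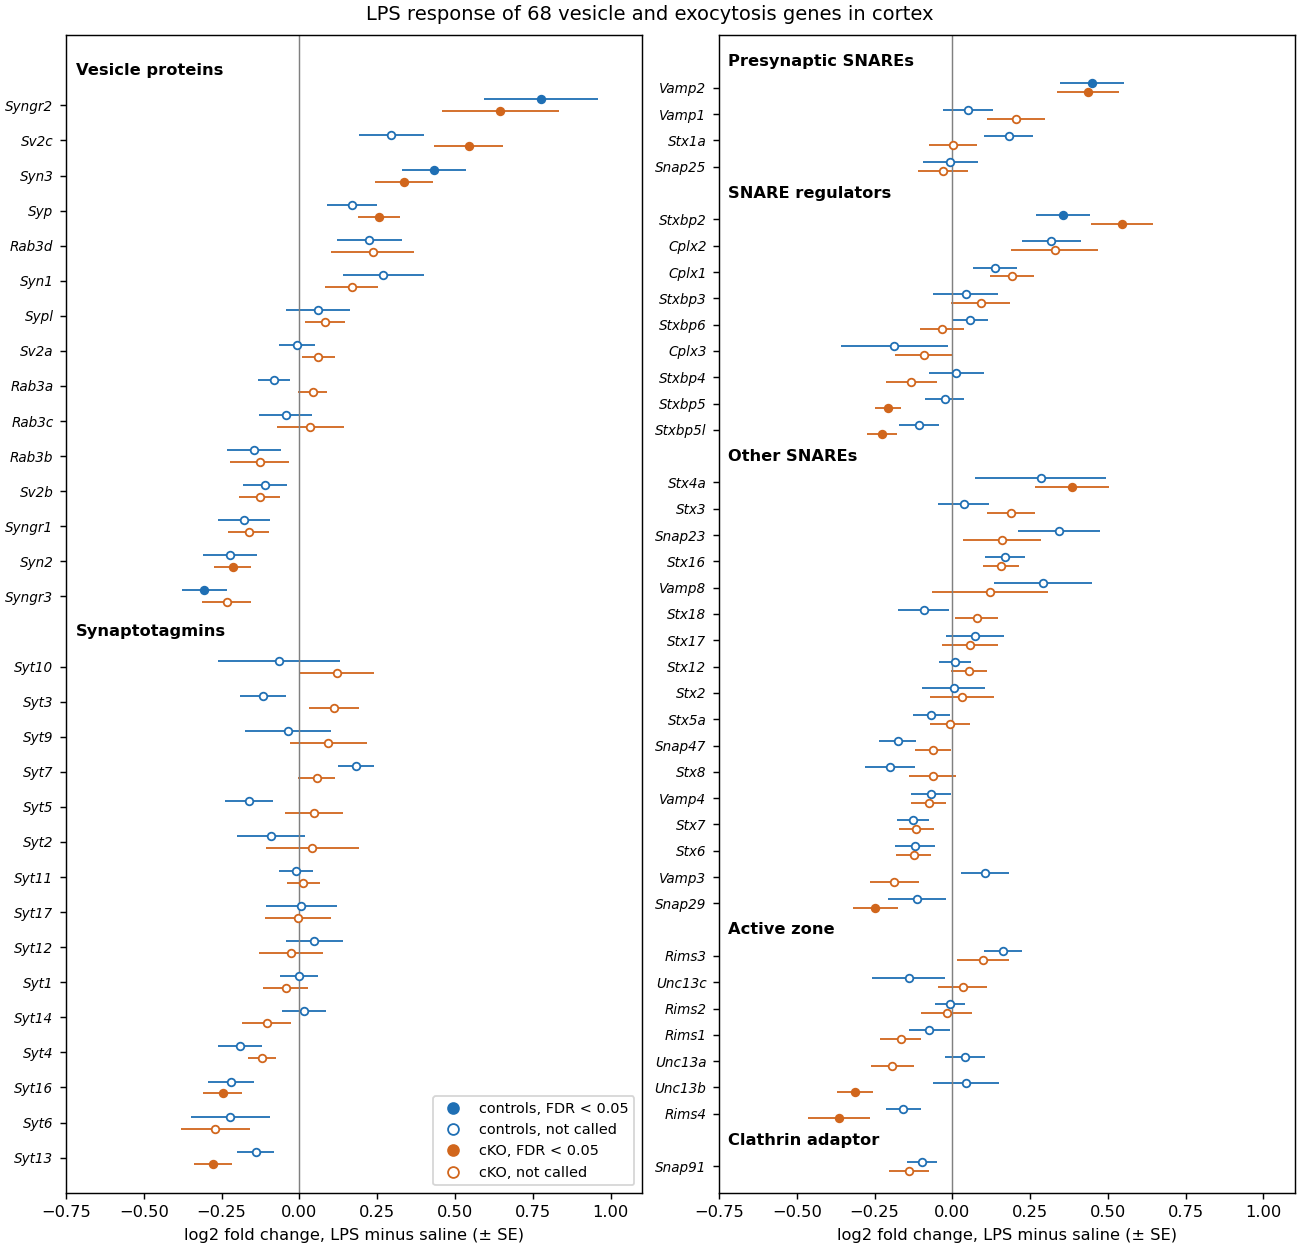
Log2 fold change (LPS minus saline) of 68 of the 70 members with its SE, in controls (blue, upper point of each row) and cKO mice (orange, lower point), grouped by role and ordered by the value in cKO mice. Filled points have an FDR below 0.05: 5 of those drawn in controls and 15 in cKO mice.

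Of the fusion complex, Vamp2 rose in both genotypes, while Stx1a and Snap25 were not called. Vamp2, the vesicle SNARE of fast release, had back-calculated levels of 7.47 log2 CPM in control saline, 7.92 in control LPS, 7.48 in cKO saline and 7.92 in cKO LPS. Both saline groups were low and both LPS groups high by nearly the same step. Vamp2 rose in the authors' deposited tables by 0.45 ± 0.10 in controls (FDR = 0.0284) and 0.44 ± 0.10 in cKO mice (FDR = 0.0190), or by 36.5% and 35.2%. Stx1a, a plasma membrane syntaxin of synapses, did not pass in either table, at 0.18 ± 0.08 in controls (FDR = 0.166) and 0.00 ± 0.08 in cKO mice (FDR = 0.993) in the authors' deposited tables. Snap25, the other plasma membrane SNARE and the member with the highest mean CPM, stayed at 11.07, 11.04, 11.04 and 10.99 log2 CPM, and its 95% intervals ran from -0.20 to 0.19 in controls and from -0.21 to 0.15 in cKO mice. Vamp1, the vesicle SNARE of many fast-firing and brainstem neurons, had 0.05 ± 0.08 in controls and 0.21 ± 0.09 in cKO mice (FDR = 0.147) in the authors' deposited tables. On a per-length scale (estimated CPM per kilobase of the median GENCODE M21 transcript, control saline), Syp, Snap25 and Syngr1 ranked highest of the members at 10.57, 9.99 and 9.68 log2 units, against 7.59 for Vamp2.

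Proteins of the vesicle membrane and the reserve pool changed in both directions. Of 15 members, 2 rose and 1 fell in controls, where 9.76% of all genes were called, and 4 rose and 1 fell in cKO mice, where 19.5% were called. Syngr2, a synaptogyrin of non-neuronal cells, had the largest rise of any member. Its levels were 2.16 log2 CPM in control saline, 2.98 in control LPS, 2.22 in cKO saline and 2.90 in cKO LPS, with both LPS groups above both saline groups. In the authors' deposited tables it rose by 0.78 ± 0.18 in controls (FDR = 0.0335) and 0.65 ± 0.19 in cKO mice (FDR = 0.0391). The neuronal synaptogyrin Syngr3 went the other way, at 7.27, 6.92, 7.22 and 6.95 log2 CPM. Syngr3 fell by 0.31 ± 0.07 in controls (FDR = 0.0340), and had -0.23 ± 0.08 in cKO mice (FDR = 0.0645), in the authors' deposited tables.

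The synapsins, which bind vesicles to actin and to each other, split by paralogue. Syn3, the synapsin of developing and adult-born neurons, had 3.61, 4.05, 3.74 and 4.08 log2 CPM in control saline, control LPS, cKO saline and cKO LPS. It rose by 0.43 ± 0.10 in controls (FDR = 0.0330) and 0.34 ± 0.09 in cKO mice (FDR = 0.0349) in the authors' deposited tables. Timp3, a metalloproteinase inhibitor gene, lies within Syn3 on the opposite strand and overlaps 14.1% of its annotated exon bases. Timp3 had 0.13 ± 0.08 in controls (FDR = 0.289) and rose by 0.48 ± 0.14 in cKO mice (FDR = 0.0409) in the authors' deposited tables; the sources used here do not say whether counting used strand, so reads of the pair cannot be told apart. Syn2 had 9.09, 8.82, 9.12 and 8.86 log2 CPM. Its change was -0.22 ± 0.09 in controls (FDR = 0.122), and it fell by 0.215 ± 0.06 in cKO mice (FDR = 0.0343), in the authors' deposited tables. Syn1, the X-linked synapsin, did not pass (0.27 ± 0.13 and 0.17 ± 0.08, FDR = 0.200 and 0.186 in the authors' deposited tables).

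Syp, the abundant vesicle protein synaptophysin, had 9.46 log2 CPM in control saline, 9.61 in control LPS, 9.42 in cKO saline and 9.67 in cKO LPS. It had 0.17 ± 0.08 in controls (FDR = 0.198) and rose by 0.26 ± 0.07 in cKO mice (FDR = 0.0284) in the authors' deposited tables. Syp overlaps an antisense transcript over 16.8% of its exon bases. Sv2c, the Sv2 vesicle glycoprotein found mostly in the basal ganglia, had 5.50, 5.79, 5.42 and 5.98 log2 CPM. It had 0.30 ± 0.10 in controls (FDR = 0.0980) and rose by 0.54 ± 0.11 in cKO mice (FDR = 0.0132) in the authors' deposited tables. Striatal projection neuron markers moved in the same direction in cKO mice: 8 of 10 lay above 0 there and 2 rose (median 0.31), against 4 of 10 above 0 and 0 rising in controls (median -0.09), and their part in the value of Sv2c was not tested. Sv2a, the Sv2 form of nearly all synapses, was at -0.01 ± 0.06 and 0.06 ± 0.05, and Rab3a, the main vesicle GTPase, at -0.08 ± 0.05 and 0.04 ± 0.05, in the authors' deposited tables for controls and cKO mice.

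Of the 15 synaptotagmins, the family that senses calcium, 0 were called in controls in the authors' deposited table, where 4 had an unadjusted p below 0.05, and 2 fell in cKO mice. With 9.76% of all genes called in controls and 19.5% in cKO mice, counts this low in a list of this size say nothing particular about the family. Syt1, the fast sensor of forebrain synapses, had 10.55, 10.52, 10.59 and 10.52 log2 CPM across control saline, control LPS, cKO saline and cKO LPS. Its 95% intervals were -0.14 to 0.13 in controls and -0.21 to 0.12 in cKO mice. Both synaptotagmins that fell belong to those that do not bind calcium. Syt13 had 7.94, 7.76, 7.95 and 7.63 log2 CPM and fell in cKO mice by 0.28 ± 0.06 (FDR = 0.0172), against -0.14 ± 0.06 in controls (FDR = 0.151), in the authors' deposited tables. Syt16 had 6.99, 6.73, 7.10 and 6.81 log2 CPM and fell in cKO mice by 0.25 ± 0.06 (FDR = 0.0256), against -0.22 ± 0.07 in controls (FDR = 0.0845), in the authors' deposited tables. Over the whole family, 11 of 15 lay below 0 in controls (median -0.07) and 8 of 15 in cKO mice (median 0.00).

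Of the 10 proteins that act on SNAREs, 1 rose in controls, and 1 rose and 2 fell in cKO mice, beside the same 9.76% and 19.5% of all genes called. The complexins of most forebrain synapses did not pass. Cplx1 had 0.14 ± 0.07 and 0.19 ± 0.07 (FDR = 0.227 and 0.0805) and Cplx2 had 0.32 ± 0.09 and 0.33 ± 0.14 (FDR = 0.0617 and 0.123) in the authors' deposited tables, so all 4 values of these complexins were above 0 and none was called. Stxbp2 (Munc18-2), the form that blood cells and epithelia use for granule release, had 3.88 log2 CPM in control saline, 4.24 in control LPS, 3.87 in cKO saline and 4.43 in cKO LPS. It rose by 0.35 ± 0.09 in controls (FDR = 0.0358) and 0.55 ± 0.10 in cKO mice (FDR = 0.00933) in the authors' deposited tables. The LPS groups were the high ones in each genotype.

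The tomosyns Stxbp5 and Stxbp5l fell in cKO mice and not detectably in controls. Stxbp5 had 7.45, 7.40, 7.48 and 7.24 log2 CPM, and cKO LPS mice were the low group. It fell by 0.21 ± 0.04 in cKO mice (FDR = 0.0123), against -0.02 ± 0.06 in controls (FDR = 0.829), in the authors' deposited tables. Stxbp5l had 7.20, 7.06, 7.21 and 6.94 log2 CPM, and fell by 0.23 ± 0.05 in cKO mice (FDR = 0.0152), against -0.11 ± 0.06 in controls (FDR = 0.301), in the authors' deposited tables. With the trend of fold change on GC content and transcript length taken out over all genes, these calls ended, at -0.12 (adjusted p = 0.0817) for Stxbp5 and -0.13 (adjusted p = 0.0998) for Stxbp5l; their transcripts have a GC content of 43.7% and 43.8%, against a median of 51.5% for the members.

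**Figure D2:**
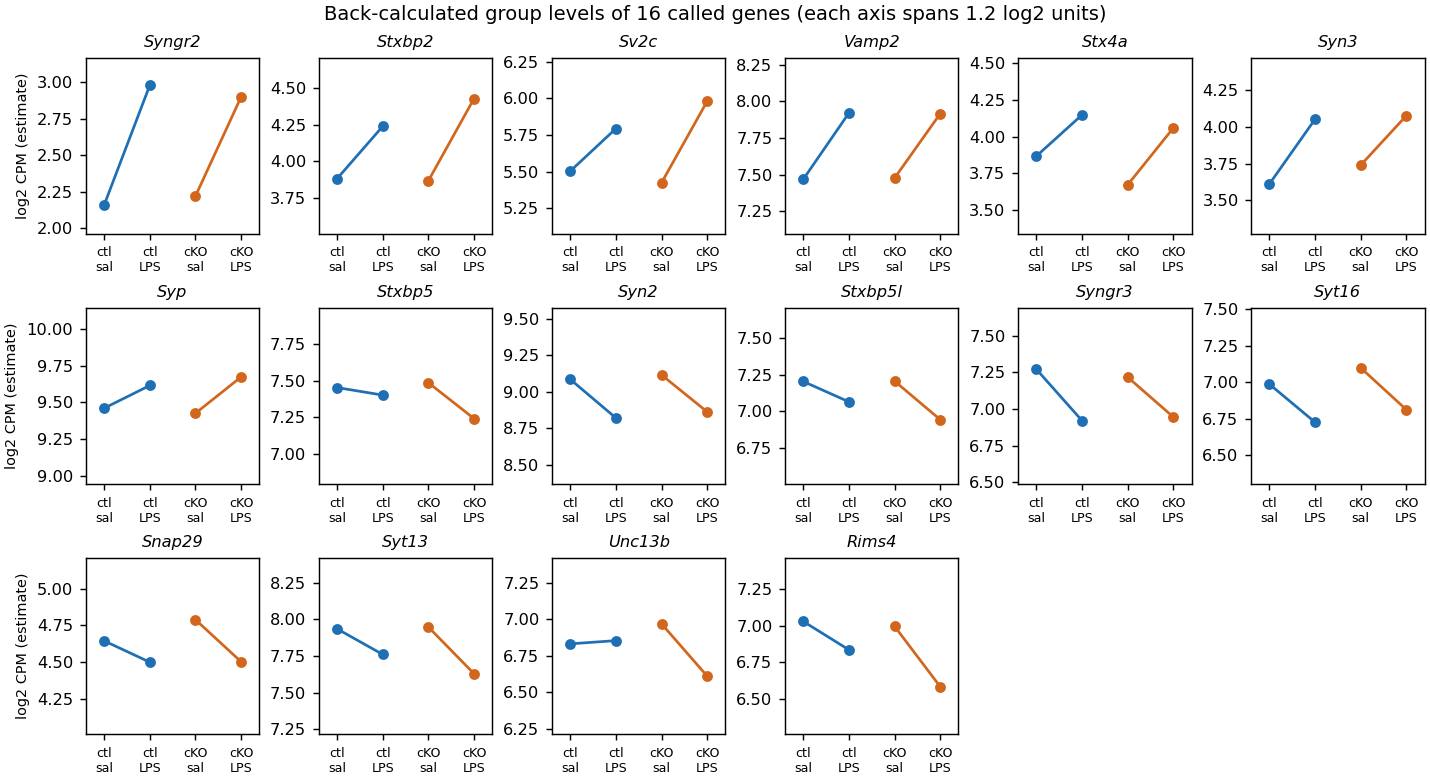
Back-calculated level (log2 CPM) of 16 of the 17 called genes in control saline, control LPS, cKO saline and cKO LPS mice, ordered by the change in cKO mice; each vertical axis spans the same log2 range, and the points are estimates without error bars. Vamp2 steps up alike in both genotypes, whereas Unc13b falls from 6.97 to 6.61 in cKO mice and reads 6.83 and 6.85 in controls. LPS levels are means of 2 estimates, so a step can differ from the deposited change, which is -0.31 for Unc13b in cKO mice.

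At the active zone, 0 of 7 members were called in controls, where 2 had an unadjusted p below 0.05. In cKO mice 2 of the 7 fell. Of all genes, 9.76% were called in controls and 19.5% in cKO mice (8.52% lower). Unc13b (Munc13-2), a priming factor of a subset of cortical synapses, had 6.83 log2 CPM in control saline, 6.85 in control LPS, 6.97 in cKO saline and 6.61 in cKO LPS. It fell by 0.31 ± 0.06 in cKO mice (FDR = 0.00997) and had 0.04 ± 0.11 in controls (FDR = 0.817) in the authors' deposited tables. Rims4, a short Rim that lacks the Rab3-binding part, had 7.03, 6.83, 6.99 and 6.58 log2 CPM. It fell by 0.36 ± 0.10 in cKO mice (FDR = 0.0332), against -0.16 ± 0.06 in controls (FDR = 0.102), in the authors' deposited tables. Unc13a (Munc13-1), the main priming factor of forebrain synapses, had 8.77, 8.79, 8.75 and 8.52 log2 CPM, with cKO LPS mice as the low group. Its changes were 0.04 ± 0.06 in controls (FDR = 0.708) and -0.19 ± 0.07 in cKO mice (FDR = 0.0768) in the authors' deposited tables. Rims1, the large scaffold that binds Rab3 and Unc13a, had -0.07 ± 0.06 and -0.17 ± 0.07 (FDR = 0.486 and 0.101) in the authors' deposited tables. With the GC and length trend taken out, Rims4 passed in controls too (-0.25, adjusted p = 0.0273), and so did Unc13a in cKO mice (-0.26, adjusted p = 0.0370).

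Of the 17 SNAREs that serve other membranes, 0 were called in controls, where 5 had an unadjusted p below 0.05 and 9.76% of all genes were called, and 1 rose and 1 fell in cKO mice, where 19.5% were called. Stx4a, a plasma membrane syntaxin of many non-neuronal cells, had 3.87, 4.15, 3.67 and 4.06 log2 CPM. It rose by 0.38 ± 0.12 in cKO mice (FDR = 0.0490) and had 0.28 ± 0.21 in controls (FDR = 0.403) in the authors' deposited tables. Snap29, a SNARE of endosomes and autophagosomes, had 4.64, 4.50, 4.79 and 4.50 log2 CPM. It fell by 0.25 ± 0.07 in cKO mice (FDR = 0.0402), against -0.11 ± 0.09 in controls (FDR = 0.453), in the authors' deposited tables. The clathrin adaptor gene Snap91, which the rule takes in by name although it is no SNARE, did not pass (-0.10 and -0.14 in the authors' deposited tables for controls and cKO mice).

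The counts in cKO mice moved when base composition and length were allowed for. Across the 70 members, the fold change in cKO mice had a Spearman rho of 0.26 with transcript GC content and -0.26 with transcript length, and across the 13730 genes with both values it was 0.28 and -0.06. With that trend taken out, 4 members rose and 8 fell in cKO mice, against 8 and 8 as deposited, and 5 rose and 2 fell in controls, against 5 and 1. Calls over all genes also became fewer. In cKO mice 15.6% of all genes were then called, against 19.5% as deposited, and in controls 8.73%, against 9.76%. The calls that ended in cKO mice were those of Stxbp5, Stxbp5l, Snap29, Stx4a, Syn3, Syngr2 and Syp, with values between -0.19 and 0.58; Unc13a, Syngr1 and Syngr3 passed in their place, all lower. Of the 16 calls, 9 were kept, among them Vamp2, Stxbp2, Sv2c, Syn2, Rims4, Syt13, Syt16 and Unc13b.

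The responses of the 2 genotypes went together across members. All 5 genes called in both, among them Vamp2, Stxbp2, Syn3 and Syngr2, rose in both. They are 5 of the 6 called in controls and 5 of the 16 called in cKO mice. Over all genes, 725 were called in both, of 1346 called in controls and 2681 called in cKO mice. All 725 had the same direction in both genotypes, so a shared direction is not particular to the members. The comparisons share no mouse, and 51 of 70 members had the same sign, against 10228 of 13784 genes. Across the 70 genes Pearson's r between the 2 fold changes was 0.82 and Spearman's rho 0.73 (0.68 and 0.63 over all genes); genes of a comparison share its libraries and are not independent replicates.

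**Figure D3:**
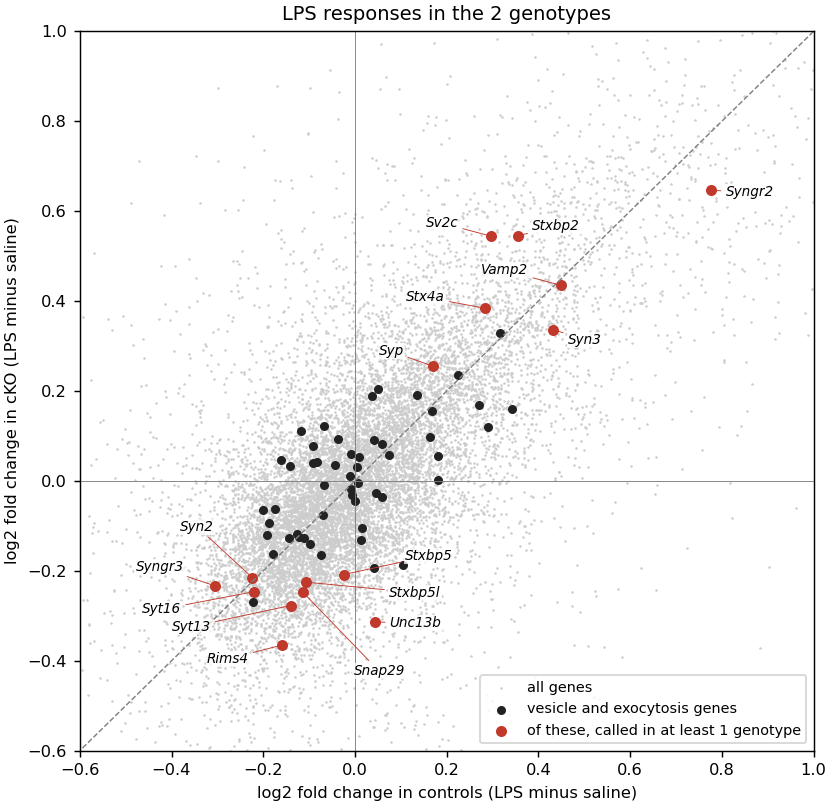
Log2 fold change after LPS in controls (horizontal) and in cKO mice (vertical) for 68 of the 70 members (black, red where called in at least 1 genotype) over all genes (grey; 13255 of 13784 lie within the axes). The dashed line marks equal change; the genes called in both genotypes lie at the upper right, and Unc13b lies furthest below the line.

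The difference between the LPS responses of cKO and control mice was tested per gene and adjusted over all 13784 genes. It passed for 0 of 70 members, where 0.00725% of all genes passed; 4 members had an unadjusted p below 0.05, against 6.52% of all genes, and with standard errors taken from F 0 members passed as well. Unc13b had the smallest p, with a cKO-minus-control difference of -0.36 ± 0.14 (95% interval -0.63 to -0.08, adjusted p = 0.625). The next were Vamp3, a SNARE of recycling endosomes in many cell types (-0.29 ± 0.12, adjusted p = 0.672), Unc13a (-0.24 ± 0.11, adjusted p = 0.699), Stxbp5 (-0.18 ± 0.09, adjusted p = 0.750) and Syt3 (0.23 ± 0.12, adjusted p = 0.769). The SEs and intervals of these differences come from the p-values. They are wider than those from F, most so for genes with small p-values. For Vamp2 the 95% interval of the difference ran from -0.40 to 0.37. A call in cKO mice alone is therefore not shown to differ between the genotypes for any member.

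After LPS, 0 of 70 members passed between cKO and control mice in the authors' table of genotypes as deposited, where 0.00725% of all genes passed. An unadjusted p below 0.05 was found for 8 members, against 12.3% of all genes. For 66 of the 70 the 95% interval lay wholly inside a 1.5-fold difference. Unc13a had the smallest p of the members (-0.28 ± 0.07, FDR = 0.282 in the authors' deposited table), from 8.79 log2 CPM in control LPS and 8.52 in cKO LPS mice. It was followed in the authors' deposited table by Unc13c, the Unc13 form of cerebellar granule cells (0.35 ± 0.11, FDR = 0.312), Stxbp5 (-0.17 ± 0.06, FDR = 0.312), Syt5 (0.24 ± 0.09, FDR = 0.336) and Stx1a (-0.20 ± 0.08, FDR = 0.358). Vamp2 had -0.0046 ± 0.07 and Syt1 -0.01 ± 0.06 in the authors' deposited table. These comparisons share the LPS mice with the tests of LPS above, so the low values of Unc13a and Stxbp5 here and in the cKO response are not separate evidence.

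**Figure D4:**
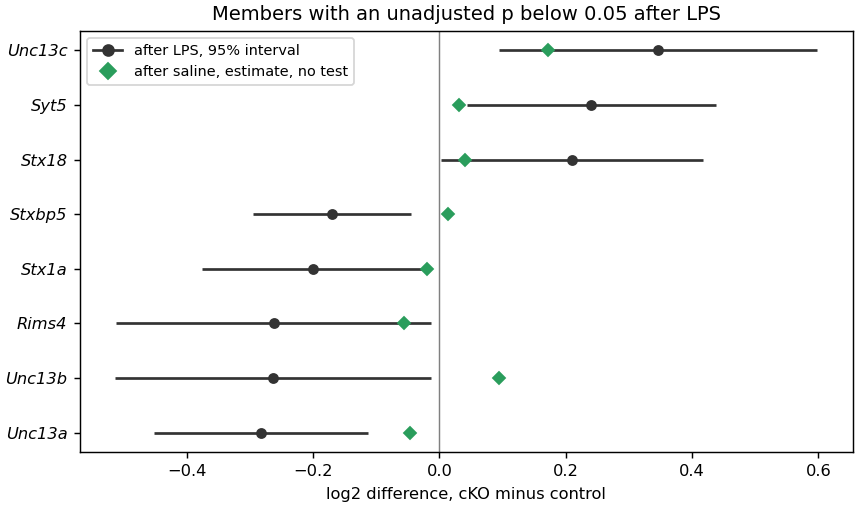
Difference between cKO and control mice after LPS (black points with 95% intervals, log2 scale) for the 8 members with an unadjusted p below 0.05, none of which passed the adjustment over all genes. Green diamonds give the untested estimate after saline, which for Unc13a is -0.05 against -0.28 after LPS.

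No table compares the saline groups, so the difference of cKO from control mice given saline was estimated from the 3 deposited fold changes, without a test. Across members it ran from -0.24 for Syt2 to 0.17 for Unc13c, with a median of 0.01 beside 0.00 for all genes. For Unc13a it was -0.05, for Stxbp5 0.01, for Unc13b 0.09 and for Vamp2 0.01.

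Other genes of vesicle release were listed by function. Of 39 such genes in the tables, 2 rose and 3 fell in controls, where 6.46% of all genes rose and 3.31% fell, and 3 rose and 7 fell in cKO mice, where 10.9% rose and 8.52% fell. Bsn, the active zone scaffold bassoon, rose in controls by 0.43 ± 0.12 (FDR = 0.0485) and had 0.24 ± 0.13 in cKO mice (FDR = 0.204) in the authors' deposited tables. Sh3gl2 (endophilin A1), of vesicle retrieval, rose in controls by 0.31 ± 0.08 (FDR = 0.0423) in the authors' deposited table. The 3 that fell in controls also fell in cKO mice in the authors' deposited tables: Cadps2, a priming factor of dense-core vesicles (-0.35 ± 0.07 and -0.23 ± 0.05), Svop, an Sv2-related vesicle protein (-0.31 ± 0.08 and -0.24 ± 0.07), and Rab27b, a GTPase of secretory granules (-0.29 ± 0.07 and -0.41 ± 0.08). In cKO mice Sncb (beta-synuclein), Slc32a1, the vesicular GABA transporter, and Ppfia4, a liprin, rose by 0.69 ± 0.12, 0.52 ± 0.10 and 0.23 ± 0.06, while the scaffold gene Cask and Nlgn1 (neuroligin 1) fell by 0.26 ± 0.06 and 0.20 ± 0.06, in the authors' deposited table. After LPS, 0 of the 39 differed between the genotypes.

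Markers of the cell types in the tissue moved as follows beside these genes. Of 14 pan-neuronal genes, 0 rose and 2 fell in controls (median 0.00), and 3 rose and 2 fell in cKO mice (median 0.01), with the called genes on both sides of 0 in cKO mice. Of 12 cortical excitatory neuron genes, 2 rose and 0 fell in each genotype (medians 0.11 in controls and -0.01 in cKO mice). Of 14 phagocyte genes, 13 rose in controls (median 1.23) and 10 rose and 1 fell in cKO mice (median 0.91), and of 12 endothelial genes 10 and 7 rose (medians 0.62 and 0.39). Syngr2 and Stxbp2, whose products serve non-neuronal cells, rose in the same comparisons. Stx4a rose in cKO mice as deposited and was not called in controls. The 17 SNAREs of other membranes, Stx4a among them, went both ways. In each genotype 9 lay above 0 and 8 below 0, and Snap29 fell in cKO mice as deposited. The part of phagocytes and endothelium in these values was not tested. After LPS, 13 of 14 phagocyte and 11 of 12 endothelial genes lay lower in cKO mice and 10 of 10 striatal genes higher (medians -0.38, -0.22 and 0.60), and no gene of these lists was called in the authors' deposited table. In the same comparison 9 of 12 cortical excitatory genes lay lower in cKO mice and 3 higher (median -0.08), and 0 were called. Their part in the values of the members was not tested. Of the choroid plexus genes, 4 of 4 lay below 0 after LPS in controls (median -0.93) and in cKO mice (median -0.29). Of 12 astrocyte genes, 2 rose and 2 fell in controls and 1 rose and 4 fell in cKO mice; of 10 oligodendrocyte genes, 0 were called in either.

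Sequence shared with other genes was limited among the called members. Of the 17 called genes, Syngr2 shared the most 50-base stretches with transcripts of another gene, 4.59% of its own with Gm20708, which overlaps it on the same strand. Among all members Stxbp3 shared the most, 9.27% with its pseudogene Stxbp3-ps.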

How the data were processed

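RNA was measured in the cortex of 18 mice from ribosome-depleted stranded libraries, per the labels' protocols. All sample titles carry the word saline, so samples were grouped by the genotype field; the treatment field gives the same groups. The submitters' processing notes name the build GRCm39 and the tools STAR, RSEM, cutadapt 3.5 and edgeR 3.30.3; the sources used here give neither their roles nor the gene filter or strand setting. For 3 comparisons the authors deposited, by the column headers, the log2 fold change, mean log2 CPM, an F statistic (a score), its p-value, and the FDR. Library depth is unknown, so no counting interval is given, and p-values measure the spread between these samples only.

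The headers give no direction. With fold changes read as LPS minus saline and cKO minus control, the estimates of an LPS group's level from 2 tables differed with an SD of at most 0.0537; with any sign turned, 1 SD was 0.226 or more. Intervals use degrees of freedom solved from F and its p-value (9.85, 9.76 and 8.66 for controls, cKO mice and genotypes). The difference of LPS responses was tested as the difference of the fold changes over its standard error, with Benjamini-Hochberg adjustment over all genes. Each standard error came from the deposited p-value through the normal distribution. Such standard errors are wider than those from F, most so for genes with small p-values. The method was run on simulated data with planted differences larger than any found among the members. Differences of the members' size were not simulated. GC content and length are medians over GENCODE M21 transcripts (GRCm38). Alternatives were an FDR of 0.10, a minimum fold of 1.5, a minimum mean log2 CPM of 1, centring, and removal of the GC and length trend. Members and lists were chosen with earlier results of these data known. Genes named are all called members, the 5 smallest p-values for the genotypes and for the difference of responses, and the core release genes; other genes named were chosen after their values were seen, and some genes counted in the totals are not reported here. Python 3.11.15, scipy 1.17.1 and pandas 2.3.3 were used.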

Additional observations from a re-analysis of the deposited data

How the results depend on the processing

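In controls, 6 members were called, where 9.76% of all genes were. The count was 11 at an FDR below 0.10 (18.6% of all genes) and 1, Syngr2, with a fold of at least 1.5 (3.61% of all genes). In cKO mice, 16 were called (19.5% of all genes) and 1, again Syngr2, had a fold of at least 1.5 (4.71% of all genes). The count was 22 at an FDR below 0.10 (29.7% of all genes). It was 12 after removal of the trend on GC and length (15.6% of all genes), 9 of them among the 16. A minimum mean log2 CPM of 1 and centring on the median of all genes left the counts at 6 and 16. The counts of 0 for the genotypes after LPS and for the difference of responses were 0 under each alternative run, and the median saline estimate was 0.01 with and without centring. No called value turned its direction under these alternatives. No paired analysis was possible because the tables hold no values per mouse; leaving out a replicate was not run for the same reason. The SE sets the limit on small changes: its median over members was 0.08 in each deposited comparison and 0.12 for the difference of responses.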
